A study of Mus musculus with 6 samples.

Results

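Cish and the 7 suppressors of cytokine signalling, Socs1 to Socs7, form a family of 8 genes, and their transcripts were followed in mouse bone marrow after an injection of erythropoietin. The members were chosen by name, as the array probes whose accession RefSeq assigns to 1 of these 8 genes, and 10 of the 41174 probes were found this way. Of the 8 genes, 7 were bright enough to test, among 14853 genes tested in all. Femoral marrow cells came from male ISAM mice of mixed strain, 10 weeks old, with the genotype Epo-/-::3.3K-Epo3'-Tg458. Their own Epo gene is deleted, and an Epo transgene, given as 1 line (Tg458), takes its place and leaves adults short of erythropoietin and anemic. Every group shared this genotype, and no wild-type marrow was in the comparison. The treated group held 3 samples taken 6 h after recombinant human erythropoietin (rHuEPO) at 3000 U/kg in the peritoneal cavity. Controls were 1 untreated sample and 2 samples taken 6 h after phosphate-buffered saline (PBS). The labels do not say whether the samples of a group came from separate animals. The p-values set each difference only against the spread among these samples, an estimate partly pooled over all genes tested.

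Erythropoietin binding to its receptor activates the kinase JAK2, which phosphorylates STAT5, and STAT5 then turns on target genes in erythroid precursors. CIS, the product of Cish, and the SOCS proteins are themselves made in response to cytokines. Each carries an SH2 domain, which binds phosphorylated tyrosines of receptors or kinases, and a SOCS box, which joins elongins B and C and a cullin in a ubiquitin ligase. They thereby close a negative feedback loop, and Cish is a classical early target of STAT5 downstream of erythropoietin.

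Total RNA was hybridised to 1 one-colour array per sample, and precision is limited by how few arrays there are. The untreated array shared slide 1 with rHuEPO replicate 1, and the other 4 arrays were on slide 2. The 75th percentile of the gene spots lay between 220.7 and 264 signal units. The median of the negative control spots was 4.03 untreated and 3.74 and 3.94 after PBS. After rHuEPO it was higher, at 5.51, 5.12 and 4.73 in replicates 1 to 3. Gene spots well above background made up 48.6% to 50.5% in controls and 46.2% to 46.6% after rHuEPO. The arms thus differed near background, and the part of this in dim readings was not tested. A probe flagged well above background is called measured below. All 9 tested erythroid markers and all 10 neutrophil markers were measured on every array. The summed erythroid level was 2070 to 2360 times the array's 75th percentile in controls and 2040 to 2410 times after rHuEPO, so the arms overlapped. The B lineage sum was 45.0 on the array of PBS replicate 1 and between 83.3 and 195 on the other 5. In whole marrow, fewer cells of a type and less RNA per cell cannot be told apart.

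Cish rose, and it was the single member that passed the test. Its processed signal was 208 in the untreated sample and 348 and 374 in the PBS samples. After rHuEPO the signals were 4947, 5711 and 6073 in replicates 1, 2 and 3. The arms did not overlap: the dimmest treated array stood 3.57 above the brightest control array on the log2 scale, after each array was scaled to its 75th percentile. On that scale the mean was 0.32 ± 0.54 (SD, n = 3) in controls and 4.48 ± 0.26 (SD, n = 3) after rHuEPO. The change, rHuEPO minus control, was 4.16 ± 0.30 (SE, n = 3 and 3 arrays; limma adjusted p = 0.0127). That is a 17.9-fold difference, with a 95% interval of 11.0-fold to 29.1-fold. Over all 14853 genes the same test called 10 higher, or 0.0673%, and 0 lower, while 736 genes (4.96%) had an unadjusted p under 0.05. Only 1 of the 14853 genes had a larger change than Cish. The call ended when PBS replicate 1, rHuEPO replicate 2 or rHuEPO replicate 3 was left out (limma adjusted p of 0.0959, 0.0742 and 0.0974), and with no filter on dim probes (0.115), with changes between 4.03 and 4.33.

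**Figure D1:**
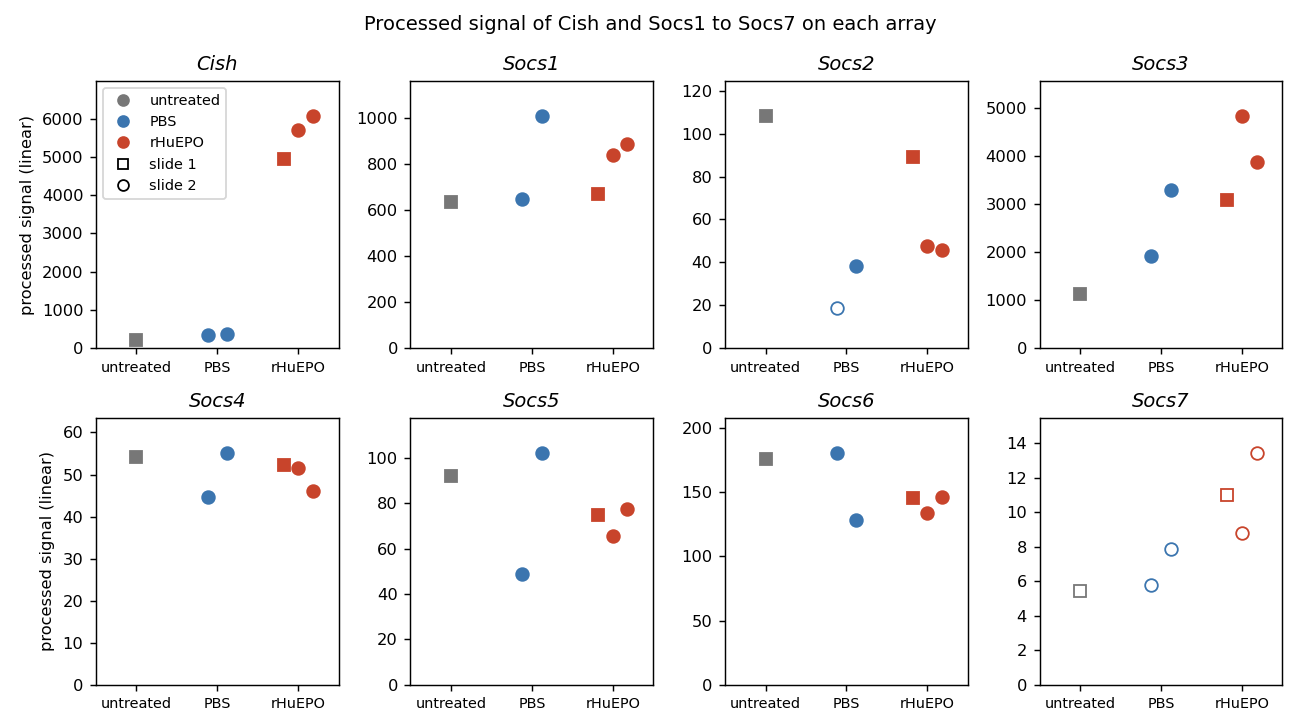
Processed signal (linear scale, vertical axes starting at 0) of each member on the 6 arrays, by group, 1 panel per gene; for Socs4 and Socs6 the brighter of 2 probes is drawn. Squares are slide 1 and circles slide 2, and open symbols are spots not well above background. For Cish the 3 rHuEPO arrays, at 4947 to 6073, lie far above the controls at 208 to 374, while the arms overlap for Socs1 to Socs6; vertical scales differ between panels and levels of different genes are not comparable.

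The start of Cish is shown because it carries a pair of STAT-type motifs. Windows of 250 bases before to 50 after the annotated start were matched in RefSeq (GRCm38.p6) for 4 of the 8 members: Cish, Socs1, Socs3 and Socs4. They were not matched for Socs2, Socs5, Socs6 and Socs7. The motif searched was TTCNNNGAA, the core bound by STAT5 and by other STAT factors, which reads the same way on both strands. Capitals mark matches, and each sequence runs 5′ to 3′ on the gene's strand. The first is 30 bases at the Cish start (chr9:107296654-107296683, plus strand), the second the 250 bases before it (chr9:107296409-107296658, plus strand), and the third 30 bases of the Socs3 window (chr11:117969502-117969531, minus strand).
Cish start: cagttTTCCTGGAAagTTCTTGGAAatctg
Cish upstream: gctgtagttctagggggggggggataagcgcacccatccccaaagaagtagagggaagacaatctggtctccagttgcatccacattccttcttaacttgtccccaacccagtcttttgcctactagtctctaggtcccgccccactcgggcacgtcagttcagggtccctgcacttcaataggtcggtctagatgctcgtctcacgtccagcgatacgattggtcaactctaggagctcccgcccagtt
Socs3 upstream: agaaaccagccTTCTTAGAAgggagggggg

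The Cish window held 2 matches to TTCNNNGAA, TTCCTGGAA from base 1 to 9 of the annotated gene and TTCTTGGAA from base 12 to 20. The Socs3 window held 1, TTCTTAGAA, 154 to 146 bases before the start the table uses, and other annotated Socs3 transcripts begin further upstream. The Socs1 and Socs4 windows held none. Of 32851 windows of the same length 8.3% held TTCNNNGAA at least once and 0.457% held it 2 or more times. A match describes the letters and is not a measured binding site.

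Socs3, which binds JAK kinases and receptors such as gp130, had the next largest change of the family and did not pass. Its signal was 1119 in the untreated sample and 1908 and 3280 in the PBS samples. It was 3078, 4828 and 3864 in rHuEPO replicates 1 to 3. All treated arrays lay above the control mean, but rHuEPO replicate 1 was below PBS replicate 2, so the arms overlapped. rHuEPO minus control came to 0.96 ± 0.41 (SE, n = 3 and 3 arrays; limma adjusted p = 1.00), 1.95-fold with a 95% interval of 0.997-fold to 3.82-fold. Of 14853 genes, 122 had a larger change. Against the PBS arrays alone it was 0.53 ± 0.30 (limma adjusted p = 1.00), the untreated array being the lowest of the controls. Fitting slide as a block gave an unadjusted p of 0.00603, and 0.289 after adjustment by limma.

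Socs2, a regulator of growth hormone signalling, differed more within the arms than between them. Its signal was 108 in the untreated sample, 18.5 and 38.4 in the PBS samples, and 88.9, 47.5 and 45.6 in rHuEPO replicates 1 to 3. PBS replicate 1 was not well above background, the one such reading among the 7 tested members. The untreated array and rHuEPO replicate 1, which share slide 1, were the highest pair. The difference between arms came to 0.39 ± 0.56 (SE, n = 3 and 3 arrays; limma adjusted p = 1.00), with a 95% interval from -0.93 to 1.71. Against PBS alone it was 1.02 ± 0.38 (limma adjusted p = 1.00, unadjusted p = 0.0320), a contrast that called 0.0202% of all genes higher. Its size is uncertain because 1 of the 2 PBS readings was dim, and without that array the change against the remaining controls was -0.15.

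Socs1, an inhibitor of JAK kinases known for restraining interferon-gamma signalling, showed no difference beyond its spread. The signals were 634 untreated, 647 and 1010 after PBS, and 670, 842 and 889 after rHuEPO. The highest and the lowest of the 6 arrays were both controls. The arms differed by 0.043 ± 0.26 (SE, n = 3 and 3 arrays; limma adjusted p = 1.00), and the 95% interval ran from 0.674-fold to 1.57-fold.

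Socs4 and Socs5, a closely related pair linked to epidermal growth factor receptor signalling, gave small negative differences. The 2 Socs4 probes had changes of -0.082 ± 0.16 and -0.13 ± 0.21 (SE, 3 against 3 arrays; limma adjusted p = 1.00 for both, over 19590 probes). The brighter one read 54.2 untreated, 44.5 and 55.2 after PBS, and 52.4, 51.5 and 46.2 after rHuEPO. Its SD over the 6 arrays was 0.070 on the log2 scale, lower than that of all but 0.7% of the tested genes. Socs5 read 92.0 untreated, 48.9 and 102 after PBS, and 75, 65.7 and 77.7 after rHuEPO. The treated arrays all lay inside the range of the controls, with a difference of -0.14 ± 0.27 (limma adjusted p = 1.00). PBS replicate 1, the array with the low B lineage sum, was the lowest of the 6 for both Socs2 and Socs5, and the part of that difference in these readings was not tested.

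Socs6, an adaptor that also binds the receptor KIT and insulin signalling proteins, had 2 probes with changes of -0.16 ± 0.21 and -0.22 ± 0.22 (SE, 3 against 3 arrays; limma adjusted p = 1.00 for both). The brighter probe read 176 untreated, 181 and 128 after PBS, and 146, 134 and 147 after rHuEPO. On the scaled log2 values rHuEPO replicate 2 was the lowest of the 6 arrays (-0.95, against -0.93 for PBS replicate 2), and the arms overlapped. The 2 probes of Socs4 thus pointed the same way, as did those of Socs6. On none of the 6 arrays was the Socs7 probe well above background, with readings from 5.45 to 13.5, so no level or change is given for it. As a list, 4 of the 7 tested members lay above 0 with a median change of 0.043, against 47.3% of all genes and a median of -0.015. One member, Cish, had every treated array above every control array, which held for 5.01% of all genes, and 0 members had the opposite, which held for 5.39%.

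**Figure D2:**
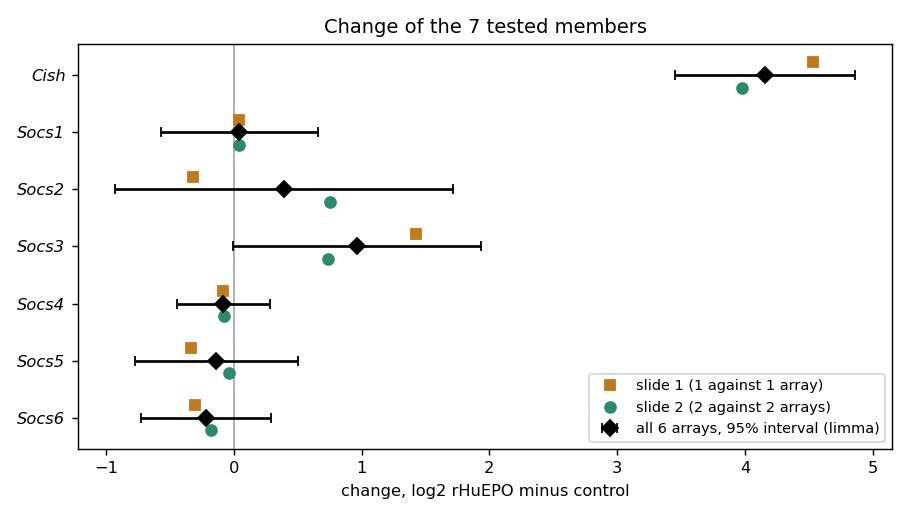
Change (log2, rHuEPO minus control) of the 7 tested members: diamonds with bars are the limma estimate from 6 arrays and its 95% interval, squares the difference within slide 1 (1 against 1 array) and circles that within slide 2 (2 against 2). Cish stands at 4.16 with 4.53 and 3.97 in the slides; the intervals of the other 6 include 0, and the Socs2 differences of the slides have opposite signs.

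The difference between Cish and each other member within an array is not changed by scaling an array with 1 factor, although quantile normalization or another background correction can change it. Log2 Cish minus log2 Socs3 was higher after rHuEPO by 3.20, the smallest shift of the 6 pairs. The shift was 3.77 against Socs2, of uncertain size because the Socs2 reading of PBS replicate 1 was not well above background. It was 4.12 against Socs1, 4.24 against Socs4, 4.30 against Socs5 and 4.38 against Socs6. In all 6 pairs every treated array lay above every control array. This follows from Cish alone, whose gap of 3.57 between the arms exceeds the range of any other member over the arrays (at most 2.33). The 6 pairs share the Cish readings and are not separate support for its change. Two-sided exact permutation tests gave p = 0.1 for each pair (adjusted 0.1 over the 6 pairs), the smallest p that 3 against 3 arrays allow, so this design cannot pass the threshold with that test.

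Readings of 4 members were also set side by side by slide, and none of their slide differences passed with the 75th percentile scaling. Within each arm the slide 1 array was the lowest for Cish, Socs1 and Socs3, and for Socs2 it was the highest. Slide 2 minus slide 1, from the fit with slide as a block, was 0.66 ± 0.18 for Cish and 0.96 ± 0.25 for Socs3. It was 0.50 ± 0.19 for Socs1 and -1.34 ± 0.34 for Socs2 (SE, 6 arrays; limma adjusted p of 0.0680, 0.0585, 0.128 and 0.0574 in this order). For Socs4, Socs5 and Socs6 the slide difference lay between -0.087 and 0.022. This comparison was looked at after the values were seen. Over all genes it called 7.18% higher and 3.43% lower on slide 2, and with median scaling Cish and Socs3 passed it (limma adjusted p of 0.0366 and 0.0376). Slide and scan fall together, and in the control arm slide also coincides with untreated against PBS, so these cannot be told apart there.

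**Figure D3:**
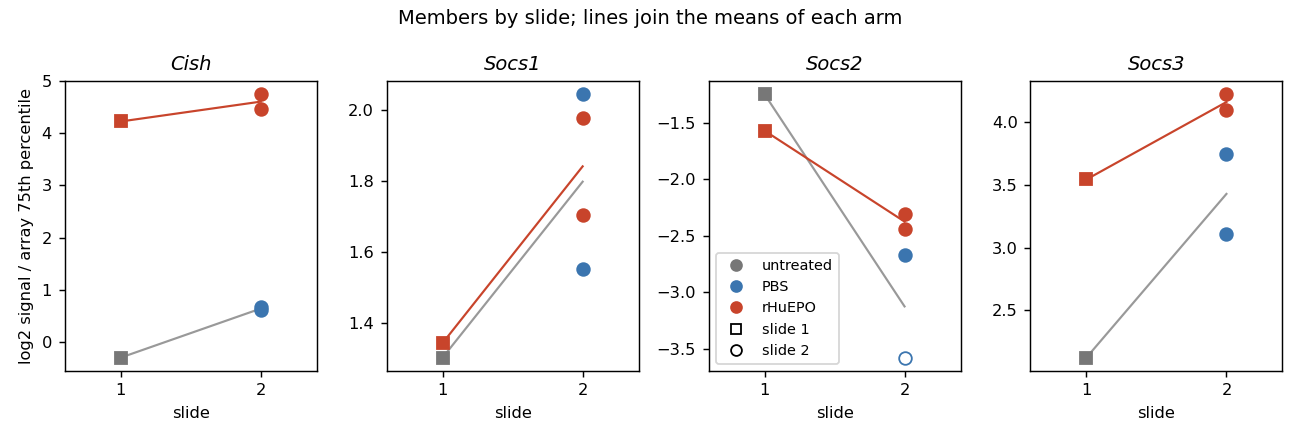
Log2 signal relative to each array's 75th percentile for Cish, Socs1, Socs2 and Socs3, by slide; red lines join the rHuEPO means and grey lines the control means, and an open circle marks the dim Socs2 reading. On slide 1 both arms are lower for Cish, Socs1 and Socs3 and higher for Socs2, while the step between arms for Cish is far larger than the step between slides.

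Untreated against PBS rests on 1 untreated array, the only control on slide 1, so injection and slide cannot be told apart in it, and that array was assumed to vary like the others. Untreated minus PBS was -0.94 ± 0.30 for Cish, -1.31 ± 0.41 for Socs3, -0.50 ± 0.37 for Socs1 and 1.88 ± 0.50 for Socs2 (SE, 1 against 2 arrays). None passed (limma adjusted p of 0.676, 0.676, 0.680 and 0.676), and the contrast called 0 genes, or 0%, in either direction, while 5.41% had an unadjusted p under 0.05. Cish without the untreated array was still called, at 3.85 ± 0.23 (SE, 3 rHuEPO against 2 PBS arrays; limma adjusted p = 0.00808). Fitted with a slide block, its change of 4.16 had an SE of 0.17 (limma adjusted p = 0.00243), in a fit that called 0.0741% of genes higher. The difference between slides in the change of Cish was -0.56 ± 0.33 (limma adjusted p = 1.00).

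Genes with a pattern like that of Cish were sought among named genes with an SD of at least 0.5 over the arrays, by Pearson's r over the 6 arrays. Such an SD was reached by 2508 genes before unnamed entries were left out, so the highest r were picked from many. The 8 highest were Ccdc189, Erfe, Plek2, Rgs16, Apol9b, Grtp1, Igfbp2 and Natd1, with r between 0.97 and 0.98. Erfe, Rgs16 and Igfbp2 were well above background on only the 3 rHuEPO arrays, so they passed the filter through that arm and their r rests on control readings at background. As the arrays fall into 2 arms that are far apart for Cish, r mostly follows that step. The size of the step differed: Natd1 differed by 0.89 ± 0.20 and Ccdc189 by 1.37 ± 0.18 (limma adjusted p of 0.506 and 0.0680), against 2.65 ± 0.23 for Plek2 (0.0210). For Socs2 the closest were Mertk, Sidt1 and Cdyl (r of 0.99, 0.98 and 0.98), each highest on the untreated array and lowest on PBS replicate 1. The Socs2 reading of PBS replicate 1 was not well above background, so these r rest in part on a dim value. For Socs3 they were Soat2, Dbr1 and Rpp40 (r of 0.99, 0.96 and 0.96), each lowest on the untreated array. With median scaling 6 of the 8 genes nearest Cish, 5 of those nearest Socs2 and 5 of those nearest Socs3 stayed among the first 8. With quantile normalization 7, 5 and 4 stayed, in the same order.

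The pathway above the family showed 0 calls among its receptors, kinases and STAT factors. Over all genes the test called 0.0673%, so 0 calls in lists this short is near that share. Of all genes 47.3% lay above 0. Of 27 tested cytokine and growth factor receptors that CIS or SOCS proteins act on, 12 lay above 0 (median -0.031). Epor, the erythropoietin receptor, read 0.31 ± 0.24 (limma adjusted p = 1.00). Those with the smallest p were the oncostatin M receptor Osmr (1.16 ± 0.36), the interleukin-5 receptor Il5ra (-0.46 ± 0.26) and the leukemia inhibitory factor receptor Lifr (0.47 ± 0.32), with limma adjusted p of 0.811, 1.00 and 1.00. Of the 11 JAK and STAT genes 7 lay above 0 (median 0.041), with Jak2 at -0.21 ± 0.28, Stat5a at -0.012 ± 0.21 and Stat5b at 0.066 ± 0.28. The smallest p in this list belonged to Stat2 (0.43 ± 0.18) and Jak1 (0.22 ± 0.19). For Stat2, an interferon pathway factor, every treated array exceeded every control array (limma adjusted p = 0.984). This held for Osmr too and for 5.01% of all genes. The receptor gene Igf1r had the opposite, which held for 5.39% of all genes.

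Among partners and relatives of the SOCS box 0 genes passed, against 0.0673% of all genes, of which 47.3% lay above 0. Of the 10 elongin, cullin and neddylation genes 9 lay above 0 with a median of 0.056 and a range from -0.10 to 0.30. Ube2f, a neddylation enzyme, led by p (0.30 ± 0.20), followed by Nedd8 (0.21 ± 0.22) and the RING protein Rnf7 (0.12 ± 0.17), all with a limma adjusted p of 1.00. Of 26 other SOCS box genes 12 were too dim, 1 had no matched probe and 13 were tested. Asb17, an ankyrin repeat gene, had the largest difference there, 2.00 ± 0.36 (limma adjusted p = 0.295). It was measured on all 3 rHuEPO arrays but on only 1 control array, so its size is uncertain. Asb1 stood at 0.44 ± 0.24 and Wsb2 at 0.30 ± 0.23 (limma adjusted p = 1.00 for both). Of the 16 tested phosphatases, PIAS proteins and other brakes on JAK-STAT signalling, 8 lay above 0 (median -0.0057) and 0 passed. Usp18, which restrains the type I interferon receptor, led at 1.27 ± 0.23 with the arms apart (limma adjusted p = 0.307). The treated arrays all lay above the controls for Asb17 too, and for 5.01% of all genes. Ptprj (-0.22 ± 0.22) and Dok1 (0.14 ± 0.20) followed (limma adjusted p = 1.00 for both).

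Genes that answer to STAT factors were listed with earlier results of these data known, so their counts only describe. Over all genes 0.0673% passed and 47.3% lay above 0. Of 16 tested STAT5-responsive genes 12 lay above 0 (median 0.11) and 1, Erfe, passed. Erfe encodes the erythroblast hormone erythroferrone, could not be measured in controls, and after rHuEPO was higher by at least 24.1-fold (limma adjusted p = 3.17e-05, which tests the readings and not the bound). Tfrc, the transferrin receptor, stood at 0.97 ± 0.19 and the kinase gene Pim1 at 1.41 ± 0.36 with the arms apart (limma adjusted p of 0.427 and 0.626). Every treated array exceeded every control array for 3 of the 16, Erfe among them, and for 5.01% of all genes. Of 13 STAT3-responsive genes 11 lay above 0 (median 0.12) and 0 passed, with Timp1 at 1.23 ± 0.34, Saa3 at 2.16 ± 1.75 and Il4ra at 0.35 ± 0.32 (limma adjusted p of 0.720, 1.00 and 1.00). The arms were apart for Timp1 as well. Saa3 was measured on only 2 of the 3 control arrays and not on the untreated one, so its size is uncertain. Among the monocyte and macrophage markers 7 of 9 also lay above 0 (median 0.31), with a summed level of 358 to 543 in controls and 390 to 407 after rHuEPO, and their part in these differences was not tested.

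**Figure D4:**
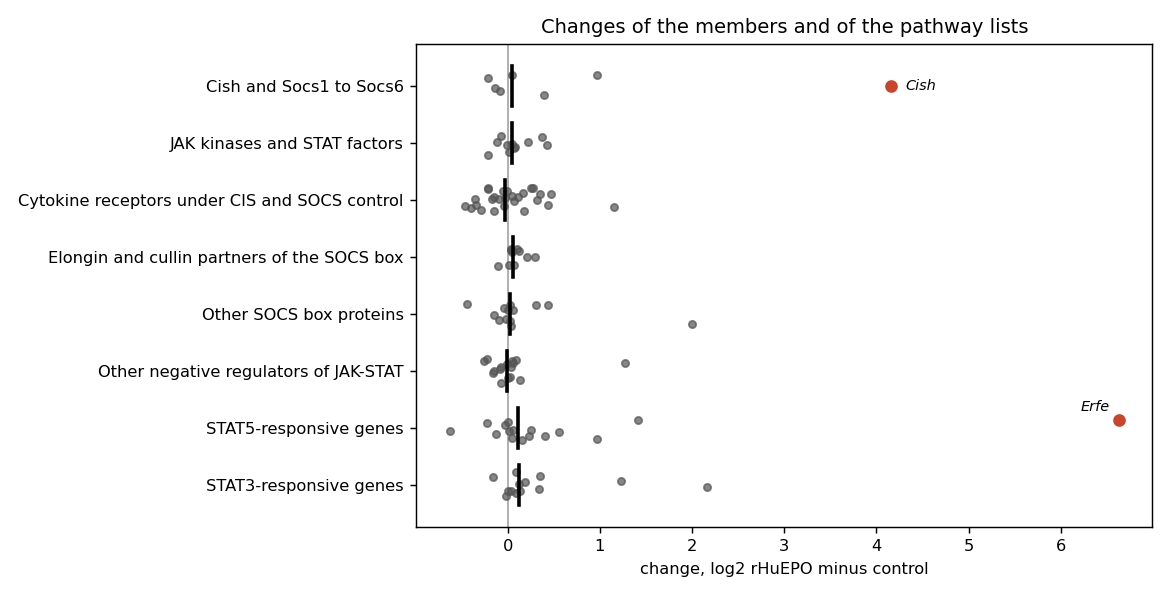
Change (log2, rHuEPO minus control) of every tested member and of every tested gene of 7 pathway lists; each dot is a gene, black bars are medians and red dots passed the limma test over all genes. Cish at 4.16 and Erfe at 6.63, a reading of a gene too dim to measure in controls, are the red dots, and the medians of the lists run from -0.031 to 0.12.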

How the data were processed

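One-colour Agilent arrays (Cy3) were read, per the file headers, with Feature Extraction 10.7.3.1. The deposited scanner files give each spot's intensity on a linear scale, background already subtracted by that software. The deposited value table holds log2 values whose scale and centring the authors do not state in the sources used here. Its values matched the scanner signals used here once each probe's median over the arrays was subtracted (slopes of at least 0.9996, median absolute differences of at most 0.0121), with column medians of -0.103 (untreated), -0.0569 and -0.0975 (PBS), and 0.117, 0.0111 and 0.0867 (rHuEPO).

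Each log2 processed signal was taken relative to its array's 75th percentile of gene spots. Control spots and outlier spots were left out, and spots of a probe were averaged. Probes well above background on 3 or more of the 6 arrays were tested (19590 of 41174), and a gene was read from its brightest tested probe. Accessions were named through RefSeq (GRCm38.p6), which matched 26690 probes (64.8%). No spot was saturated. Correlations between arrays ran from 0.9636 to 0.9914.

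Tests used limma 3.58.1 in R 4.3.3 (lmFit and eBayes, two-sided, Benjamini-Hochberg over all genes, threshold 0.05), with 3 rHuEPO against 3 control arrays, a fit with 3 groups, and slide as a block or with an interaction. A bound sets the measured arm against the higher of the dim reading and the lowest measured signal on each dim array. The members and lists were chosen with earlier results of these data known. Named genes are all members, the 3 of smallest p per list, Epor, Jak2, Stat5a, Stat5b, and the 8 most like Cish, Socs2 and Socs3, of which the first 3 are given for the last 2. On data simulated for rHuEPO against control over 14853 genes 7 false calls were made. Of the genes given a 2-fold change 36% were recovered, of those given 4-fold 82%, of those given 8-fold 94%, and of those given 16-fold 96%. The simulation drew noise independently for each gene, held no slide effect, and changed many more genes than the 10 called in the real data. More changed genes make the adjusted threshold easier to pass, so these rates do not carry over to the real test.

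Alternatives were quantile and median scaling, normexp (offset 50, on median signals, as the files used here carry no mean signals), testing dim probes too or only those measured on all 6 arrays, the deposited table, PBS as the only control, a trended robust prior, the mean of all probes, every probe as a row, blocks for slide or for replicate number, array weights, slide 2 alone, and leaving out each array. One further list of genes is not reported here.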

Additional observations from a re-analysis of the deposited data

Results flagged for a closer look

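Socs2 moved in opposite directions within the slides. On slide 1 rHuEPO replicate 1 was below the untreated array by -0.32 on the log2 scale (1 against 1 array), and on slide 2 both rHuEPO arrays were above both PBS arrays, by 0.75 on average (2 against 2 arrays). The difference between the slides was 1.07 ± 0.57 (SE) and did not pass (limma adjusted p = 1.00, unadjusted p = 0.115). Slide 1 compares with an untreated sample and slide 2 with PBS samples, 1 of which was too dim to measure for Socs2.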

How the results depend on the processing

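Cish lay above 0 in all 14 other settings and passed in 12 of them, with changes from 3.85 to 4.23. Cish was read by only 1 probe. Settings that change the filter, the prior or how probes are combined repeated its change of 4.16 and are not separate checks of its size. It did not pass with no filter on dim probes (4.16, limma adjusted p = 0.115), where 32288 genes were tested, 1 gene and 0 members were called. With 1 array left out its change ranged from 3.85 to 4.33, the count of members called from 0 to 1 and the count of genes called from 1 to 6. That count was 10 in the main setting, 1 with normexp (Cish), 5 with a filter on all 6 arrays, 3 with PBS as the only control, 3 on slide 2 alone and 27 with array weights. The replicate block, the number in the labels, gave 3.97 for Cish (limma adjusted p = 0.293), 0 members, 1 gene, and -0.19 for Socs1. The deviations of PBS and rHuEPO samples of the same number correlated at -0.071 and -0.16, and the samples share only a number.

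Socs1, Socs2 and Socs5 had no settled sign. Socs1 was -0.12 with PBS as the only control and -0.072 with array weights, and ranged from -0.12 to 0.25 with 1 array left out. Socs2 was -0.40 with normexp and ranged from -0.15 to 1.02, and Socs5 ranged from -0.41 to 0.053, with 1 array left out. Socs3 stayed above 0, and Socs4 and Socs6 below, in every setting run. Untreated minus PBS turned to -0.087 for Socs6 with median scaling. The slide difference was -0.00077 for Socs6 with quantile normalization and 0.040 for Socs5 with median scaling. With normexp, which moved the median of all genes from -0.015 to 0.070, list medians were 0.42 for JAK and STAT genes, 0.19 for receptors, 0.50 for elongin and cullin partners (0.13 with median scaling), 0.21 for other SOCS box genes, 0.36 for other negative regulators, 0.56 for STAT3-responsive genes and 0.38 for STAT5-responsive genes, of which 0 then passed. The causes were not tested.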
